A study of Mus musculus with 26 samples.

Results

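The untreated arm of a mouse pancreatic cancer study is described here: the 7 whole-tumour libraries that received vehicle only, out of 26 libraries in the series. They were chosen by their titles and not by any measured value, with earlier results of these data known. KPC mice carry cancer-driving alleles, a mutant Trp53 among them, that are switched on in the pancreas by a Cre recombinase, and they develop pancreatic ductal adenocarcinoma in place. The labels of these libraries give the strain as KPC only, with no alleles, age or sex. The treatment is given as vehicle control, and the series' design puts dosing of tumour-bearing mice at 2 weeks. Whole tumours were kept in RNAlater, and total RNA was sequenced with a stranded kit after removal of ribosomal RNA. The labels do not say whether the 7 libraries came from 7 mice, so the spread reported below is the spread between these libraries. No treated library and no sorted-cell library was used.

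A whole KPC tumour is a mixture. Duct-like carcinoma cells sit in a dense stroma of fibroblasts and macrophages, and the surrounding pancreas holds acinar cells, which secrete digestive enzymes, and islets, which secrete hormones. A dissected piece can hold any of these, and carcinoma cells themselves range from glandular, with keratins and mucins, to poorly differentiated. In such bulk RNA, fewer cells of a type and less RNA per cell cannot be told apart.

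Each library held a deposited log2 value, named log2 RPKM by the authors, for 16322 genes. The RPKM unit scales reads by gene length and by sequencing depth, so levels of different genes are compared below on a scale that is per length by its name. The 7 libraries had the same highest value (15.27) and the same median (4.80), and 73.9% of sorted values were equal between them, so counts and depth are unknown and the values of the most abundant genes are pressed together. A difference of 1 on this scale is a doubling. Means are given ± SD over the 7 libraries.

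Vehicle tumours 1 and 5 stood apart. Over the 14868 genes with a mean of at least 2, Pearson r between libraries ran from 0.71, between tumours 1 and 5, to 0.92. Its median with the other 6 was 0.81 for tumour 1, 0.84 for tumour 5 and 0.86 to 0.90 for the rest. The first principal component held 41.1% of the variance and placed tumour 1 (score 96.2) and tumour 3 (44) opposite tumour 5 (-68.5) and tumour 6 (-45.4). Tumour 1 had the highest value of 24.4% of genes and tumour 5 the lowest of 25.1%. Tumour 1 also had 18 of 20 markers of ductal and carcinoma epithelium at their lowest, so values without it are given where a result rests on it.

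The most abundant transcripts were structural and housekeeping RNAs, with secreted products of carcinoma, macrophage, acinar and matrix cells among them. Among those above the protein-coding genes stood the signal recognition particle RNAs Rn7s2 (14.76 ± 0.57) and Rn7s1 (14.54 ± 0.45), the nuclear noncoding RNA Malat1 (13.44 ± 0.53), and the mitochondrial ribosomal RNA mt-Rnr2 (13.27 ± 0.58). The unnamed noncoding models Gm23935 (14.53 ± 0.65), Gm42418 (13.84 ± 0.58) and Gm26917 (13.60 ± 0.61) ranked between Rn7s1 and Malat1. Of the 100 genes of highest mean, 49 were protein coding. The highest protein-coding gene was Spp1, which encodes osteopontin, a secreted glycoprotein made by carcinoma cells and macrophages. Its mean was 13.05 ± 0.62, with a lowest value of 12.15 in tumour 6, a median of 12.96 and a highest value of 13.92 in tumour 1, so every library had it among its most abundant transcripts. Close to it stood Actb (cytoplasmic actin, 12.76 ± 0.36) and Eef1a1 (translation elongation, 12.60 ± 0.34), both with an SD under 0.5.

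Further down the first 25 came products that mark cell types. Fn1 (fibronectin, 11.93 ± 0.63) and Col3a1 (a fibrillar collagen chain, 11.60 ± 0.89) belong to the matrix, and Lyz2 (lysozyme, 11.52 ± 1.09) and Apoe (11.55 ± 0.75) to macrophages. The chaperone genes Hsp90ab1 (11.62 ± 0.31), Hspa8 (11.51 ± 0.41) and Hspa5 (11.38 ± 0.35) were among them too. The mitochondrial oxidase subunit mt-Co1 stood at 13.29 in tumour 5 and at 11.41 to 12.11 in the others. Among these 25 genes, an SD above 1.5 was reached by Clu and by 4 gene models of pancreatic amylase and by no other. Clu, which encodes the secreted chaperone clusterin, stood at 7.84 in tumour 1 and at 11.41 to 13.38 in the other 6. Amy2a5 stood at 7.68, 14.12, 12.51, 12.89, 13.03, 15.27 and 8.28 in tumours 1 to 7. It was the most abundant gene of all in tumour 6 and low in tumours 1 and 7. The amylase models Amy2a2 to Amy2a5 are near-identical copies, so how the authors' counting split their reads is uncertain. Ccdc107 (12.47 ± 0.28) overlaps the noncoding RNA gene Rmrp (12.28 ± 0.33) on the opposite strand, from chromosome 4, 43492900 to 43493058 (GRCm38), and how reads were assigned between them is not given in the sources used here.

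Most genes differed little between these tumours. The median SD of the 14868 genes was 0.42, a 1.34-fold difference, and 5% of genes had an SD over 1.40. An SD of at least 1 was reached by 1615 genes (10.9%), of at least 2 by 249 (1.67%) and of at least 3 by 55 (0.370%). The steadiest named genes were Cic, a transcriptional repressor (6.25 ± 0.05), Srp72, a protein of the signal recognition particle (6.73 ± 0.05), and Pank2, of coenzyme A synthesis (5.46 ± 0.06). The minimum mean sets which genes enter: just above it stood Cidec (2.03 ± 2.19) and Serpina1a (2.04 ± 2.54), and just below it Tmem229a (1.96 ± 2.25). Without tumour 1, 185 genes had an SD of at least 2. The tumours did not share the extremes evenly: of the 14868 genes, 24.4%, 9.34%, 16.1%, 16.3%, 19.6%, 7.82% and 6.34% were highest in tumours 1 to 7, and 17.7%, 9.27%, 12.5%, 14.8%, 25.1%, 12.4% and 8.17% were lowest there. Counts of genes that were highest or lowest in a tumour are to be read against these shares.

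**Figure D1:**
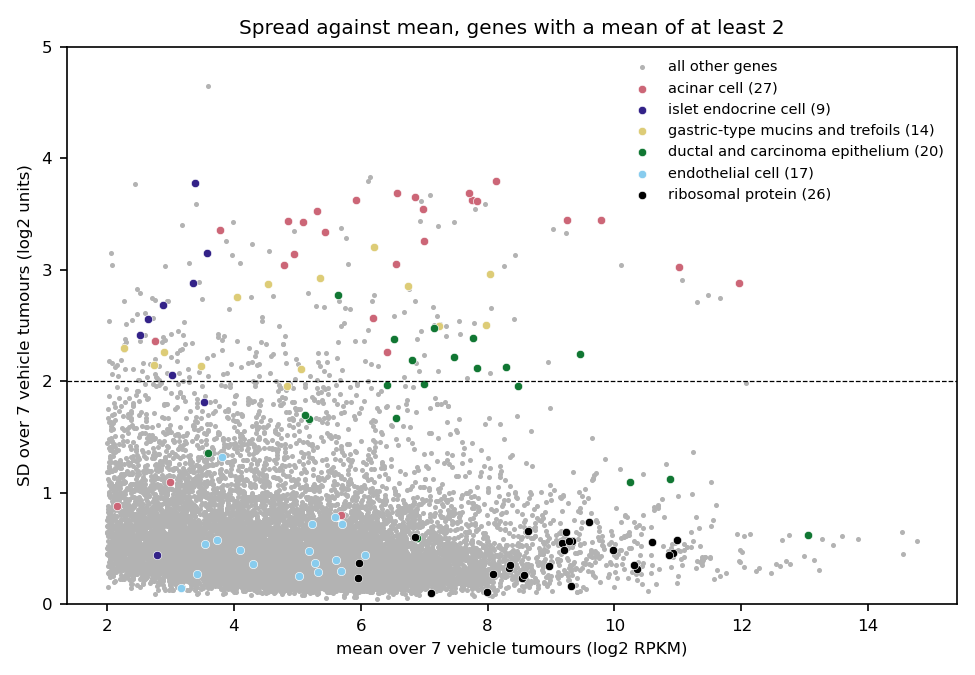
SD against mean over the 7 vehicle tumours, both on the deposited log2 scale, for the 14868 genes with a mean of at least 2. Points in colour are the measured members of 6 gene lists with such a mean, and the dashed line is an SD of 2: acinar, islet and gastric-type genes lie mostly above it, endothelial and ribosomal protein genes below it.

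The genes above an SD of 2 included many of epithelial cells and of the normal pancreas. Among cell-type lists, 24 of 27 acinar genes with a mean of at least 2 reached it, 6 of 6 Reg genes, 13 of 14 gastric-type mucin and trefoil genes, 7 of 9 islet genes, 9 of 20 ductal genes and 7 of 12 plasma cell and immunoglobulin genes, against 1.67% of all genes. None of 21 fibroblast and matrix genes, 17 endothelial, 18 macrophage, 27 cell cycle or 26 ribosomal protein genes did (0 of each). In lists of this size 0 is near the 1.67% share over all genes, so it sets none of them apart. An SD of at least 1 was reached by 7, 1, 6, 4 and 0 of them in the same order, against 10.9% of all genes. Of the 249 genes, 138 (55.4%) were lowest in tumour 1. Tumours 6 and 5 held the highest value of 80 (32.1%) and 77 (30.9%).

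**Figure D2:**
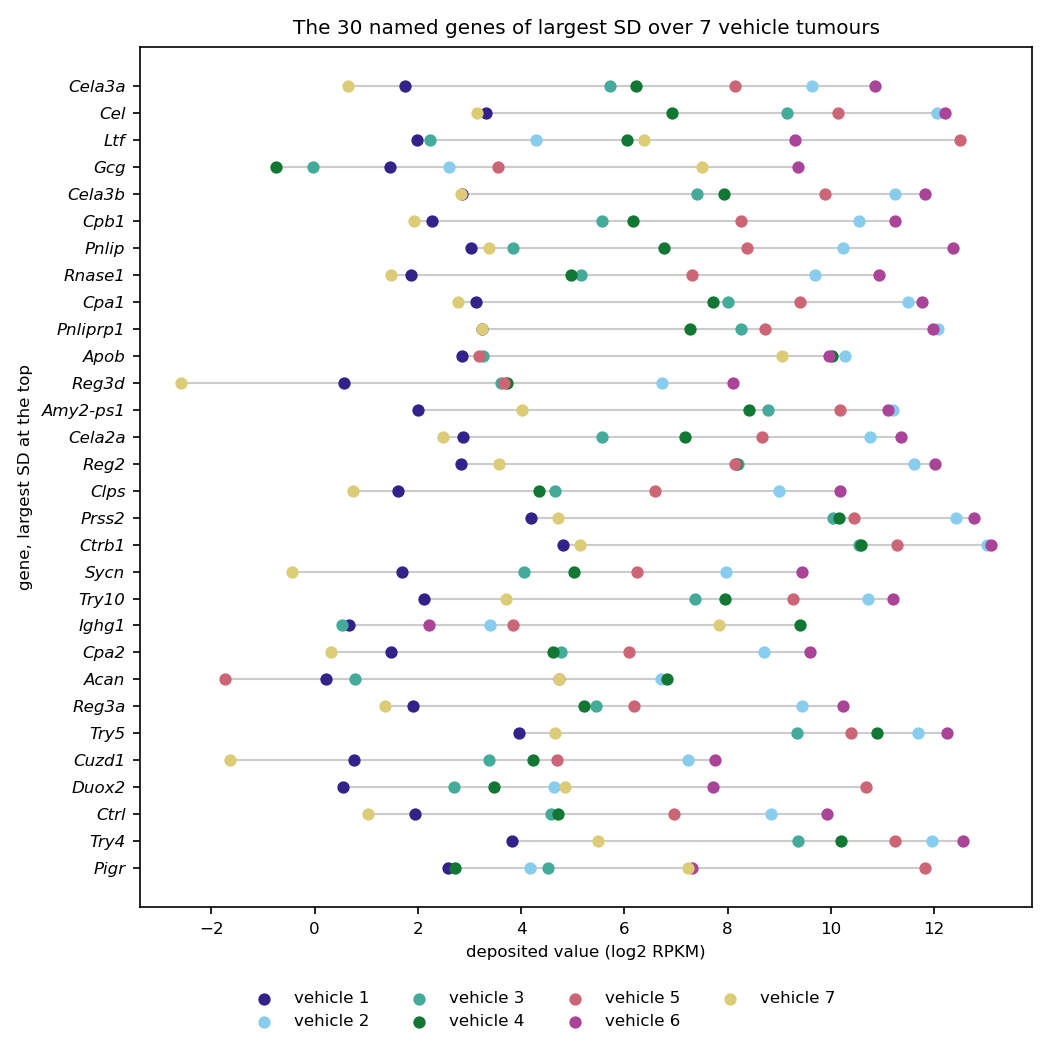
Deposited log2 value of the 30 named genes of largest SD in each of the 7 vehicle tumours, with 1 coloured point per tumour and a grey line from lowest to highest. Acinar and Reg genes share an order, with tumours 2 and 6 at the right and tumours 1 and 7 at the left, while Ltf, Duox2 and Pigr have tumour 5 at the right and Gcg tumour 6.

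To see which genes vary together, the 300 genes of largest SD (1.90 or more) were clustered by their Pearson r over the 7 libraries. Of these, 264 fell into 7 groups of at least 8 genes and 36 stayed outside. Clustering on the same 7 libraries that chose the genes gives no test, and with 7 points a high r between 2 genes is common: 3.05% of all gene pairs had r of at least 0.8, with a median r of 0.01 over all pairs.

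**Figure D3:**
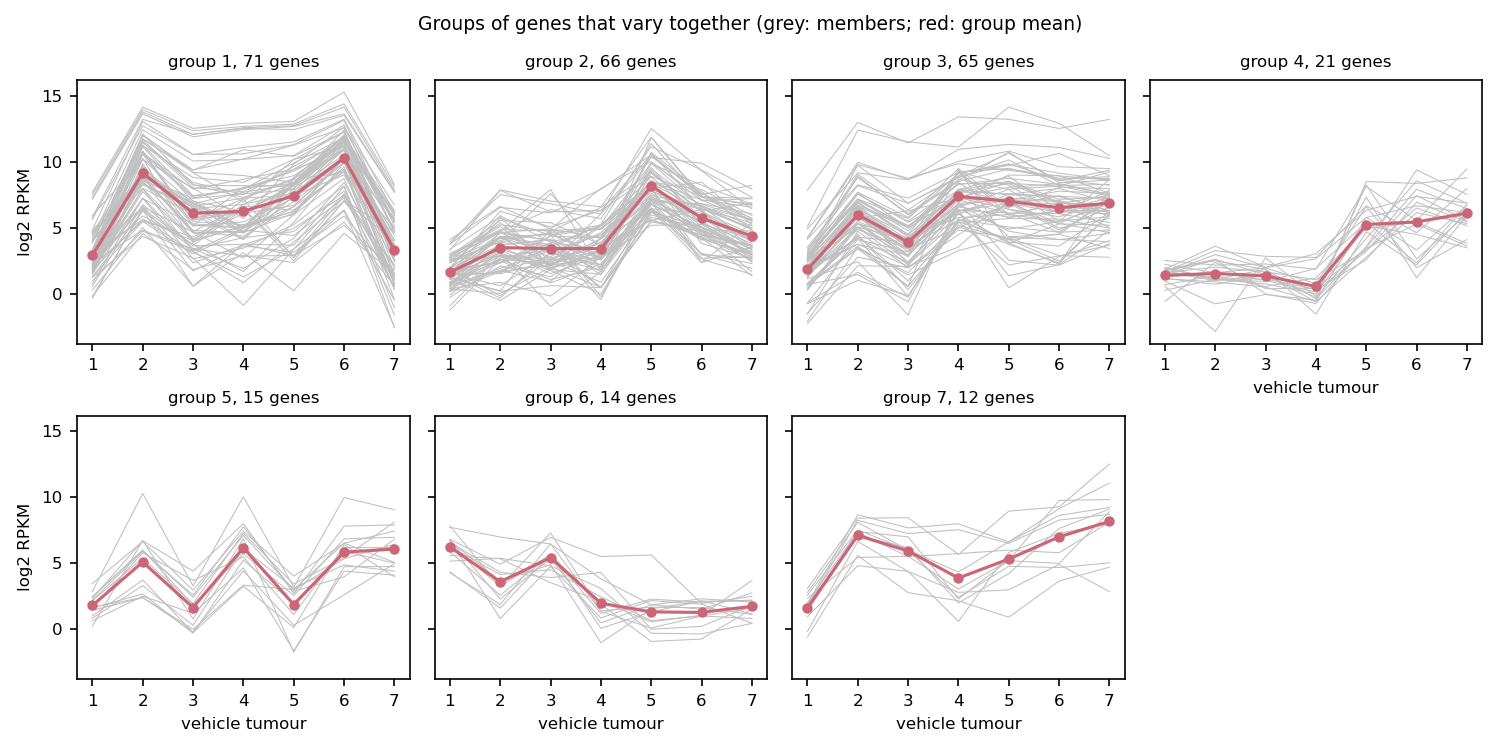
Deposited log2 value in vehicle tumours 1 to 7 of each member (grey) and of the group mean (red) for the 7 groups. The group means run highest in tumour 6 (group 1), 5 (group 2), 4 (groups 3 and 5), 7 (groups 4 and 7) and 1 (group 6).

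The largest group, of 71 genes, was that of the exocrine pancreas. It held 24 of the 28 listed acinar genes and 6 of 6 Reg genes, which encode secreted lectins of stressed acinar cells. Its mean was 10.27 in tumour 6, 9.13 in tumour 2, 7.41 in tumour 5, 6.22 in tumour 4, 6.09 in tumour 3, 3.27 in tumour 7 and 2.90 in tumour 1. The acinar list ran from 2.55 to 9.91 and took from 0.0292% to 6.76% of a library's sum of values turned back to the linear scale, with a median of 1.14%. Within the list the median r between genes was 0.94, with or without tumour 1.

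Proteases, lipases and amylases moved in much the same order. Prss1, a trypsinogen and the member closest to the group mean, stood at 2.14 in tumour 1, at a median of 6.75 and at 10.38 in tumour 6. Cela3b, a pancreatic elastase, stood at 2.85, 11.25, 7.42, 7.92, 9.88, 11.82 and 2.83 in tumours 1 to 7. Tumours 1 and 7 were thus alike in this elastase, and the other 5 did not overlap with them. Cel, the bile-salt-activated lipase, reached 12.22 in tumour 6 and 12.05 in tumour 2 against 3.33 and 3.14 in tumours 1 and 7. Cpa1, a carboxypeptidase, had the same order at both ends, from 2.79 in tumour 7 to 11.76 in tumour 6. Levels in tumour 3 differed between enzymes: Pnlip, pancreatic triglyceride lipase, was 3.84 there beside 9.16 for Cel. Pnlip was not alone, as Ctrc, another listed acinar gene, stood at 3.21 in tumour 3 and 9.23 in tumour 6.

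Transcription factors of the acinar cell were measured at low levels. Rbpjl, the acinar partner in the PTF1 complex, averaged 2.76 ± 2.36 and ranged from -0.51 in tumour 7 to 6.34 in tumour 6. Ptf1a, the complex's lineage factor, had a mean under 2 (0.56 ± 1.85). Bhlha15 (Mist1, 2.98 ± 1.10) and Nr5a2 (2.16 ± 0.88) were highest in tumours 2 and 6, and had an SD near or below 1. Of the Reg genes, Reg2 averaged 7.79 ± 3.54 and Reg3b 8.44 ± 3.13. Reg3g was higher in tumour 5 (8.64) than in tumour 2 (7.19), the reverse of the acinar order. The group also held near-identical copies whose counts are uncertain: trypsinogens (Try4, Try5, Try10), amylases, kallikreins (Klk1b3, Klk1b9) and 10 neighbouring unnamed models near the start of chromosome 9.

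Because these enzyme genes move together, their promoters were read. Acinar enzyme genes are known targets of PTF1, which binds an E-box and a TC-box together. RefSeq gave a promoter, 250 bases before to 50 after the start (GRCm38.p6), for 45 of the 71 genes. The E-box CACCTG, on either strand, was in 28 of 45 (62.2%) against 20.03% of all 27025 promoters of that length, and the TC-box TTTCCC, on either strand, was in 17 of 45 (37.8%) against 25.2%. Both were in 11 of 45 (24.4%) against 4.88%. The motifs can overlap each other by an end letter only. The near-identical copies among these genes are not independent, and a match is a description of letters and not of binding. Shown, with both motifs in capitals, are promoters that span the range of matches: the lipase Cel and the trypsinogen Prss1 with both motifs, the elastase Cela3b with E-boxes only and Cpa1 with a TC-box only.
Cel (chr2:28563354-28563653, minus strand): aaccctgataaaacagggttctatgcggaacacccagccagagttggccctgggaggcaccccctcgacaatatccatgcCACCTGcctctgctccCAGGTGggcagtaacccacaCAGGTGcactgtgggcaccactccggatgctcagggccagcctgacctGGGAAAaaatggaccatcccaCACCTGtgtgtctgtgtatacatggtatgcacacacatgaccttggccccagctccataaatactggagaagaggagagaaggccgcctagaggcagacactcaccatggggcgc
Prss1 (chr6:41458680-41458979, plus strand): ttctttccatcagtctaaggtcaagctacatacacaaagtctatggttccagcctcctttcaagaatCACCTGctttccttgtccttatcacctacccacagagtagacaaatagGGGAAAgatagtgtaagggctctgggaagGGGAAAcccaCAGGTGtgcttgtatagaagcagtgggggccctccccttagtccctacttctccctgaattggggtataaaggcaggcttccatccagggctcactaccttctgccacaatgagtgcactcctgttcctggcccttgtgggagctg
Cela3b (chr4:137430471-137430770, minus strand): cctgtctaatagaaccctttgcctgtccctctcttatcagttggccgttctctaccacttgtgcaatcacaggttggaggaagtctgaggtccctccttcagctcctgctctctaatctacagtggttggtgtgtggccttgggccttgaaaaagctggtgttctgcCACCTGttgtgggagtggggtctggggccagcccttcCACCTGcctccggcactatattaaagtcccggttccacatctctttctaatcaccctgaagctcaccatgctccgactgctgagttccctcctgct
Cpa1 (chr6:30638968-30639267, plus strand): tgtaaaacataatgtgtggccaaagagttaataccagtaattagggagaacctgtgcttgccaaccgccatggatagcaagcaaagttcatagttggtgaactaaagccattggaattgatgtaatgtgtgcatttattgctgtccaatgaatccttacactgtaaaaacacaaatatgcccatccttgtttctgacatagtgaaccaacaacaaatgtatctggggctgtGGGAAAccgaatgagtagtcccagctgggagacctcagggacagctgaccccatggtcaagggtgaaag
In Cel, 4 E-boxes lie at -170, -154, -134 and -65 from the start (the first base of each match) and a TC-box at -86. In Prss1, 2 E-boxes at -183 and -96 flank TC-boxes at -135 and -106. Cela3b has E-boxes at -83 and -46, Cpa1 a TC-box at -19. These 4 genes had r of about 0.97 or above with the group mean, whatever their motifs.

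Hormone genes of the islet fell together in another group, and their order was not that of the acinar genes. Of its 21 genes, 7 were islet genes: Ins1, Ins2 (insulin), Gcg (glucagon), Ppy (pancreatic polypeptide), Iapp (amylin) and the granins Chga and Chgb. The members closest to the group mean were not hormones, with Ces2d-ps and Fcgbp first. Gcg stood at 1.46, 2.60, -0.03, -0.75, 3.55, 9.37 and 7.51 in tumours 1 to 7, and Ins1 at 1.79, 2.59, 1.43, -0.30, 4.17, 8.53 and 6.84. Both were high in tumours 6 and 7 and at or below 2.60 elsewhere except in tumour 5. The 12 gene pairs tested were chosen with earlier results of these data known, so their p-values are not independent of the data. Ins1 and Gcg were the 1 pair of these whose Pearson r passed the threshold. Pearson r was 0.99 (exact permutation, two-sided p = 0.000198, adjusted p = 0.00238, n = 7) and Spearman rho 1 (exact permutation p = 0.000397, adjusted p = 0.00476). Without tumours 6 and 7, the farthest from the median, r was 0.95. Of the 18 islet genes measured, 17 were highest in tumour 6 and 11 lowest in tumour 4. Tumour 7, with acinar genes near their lowest, was second highest in Ins1, Ins2 and Gcg.

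Beside hormones, this group held intestinal and goblet-cell genes that were higher in tumours 5, 6 and 7. Fcgbp, a mucus protein, stood at 9.44 in tumour 7, 8.11 in tumour 5, 5.53 in tumour 6 and at most 2.5 in tumours 1 to 4. Tff3, the goblet-cell trefoil, reached 6.75 in tumour 7, and the carboxylesterase Ces2c 7.36 in tumour 6. The gene of largest spread of all belonged here too. Rprl3, a noncoding RNA related to the RNA of ribonuclease P (chromosome 8, 3803069 to 3803358, GRCm38), stood at 8.48, 8.34 and 8.76 in tumours 5, 6 and 7 and between -0.78 and 0.94 in tumours 1 to 4. No label separates tumours 5 to 7 from tumours 1 to 4. When tumour 7 was left out, 50% of the remaining members of this group stayed in 1 group.

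The glandular epithelium formed the group of 65 genes, low in tumours 1 and 3. Its mean was 1.83 in tumour 1, 3.90 in tumour 3, 5.98 in tumour 2 and 6.49 to 7.36 in the other 4, and 59 of 65 members were lowest in tumour 1. Without tumour 1, 19 of the 65 stayed among the 300 clustered genes and 14 of those in 1 group, so the group rests largely on tumour 1. Krt19, the keratin of ducts, stood at 4.90 in tumour 1, 8.61 in tumour 3, 9.14 in tumour 2 and 10.23 to 11.30 in the other 4. Cdh1 (E-cadherin) ran from 3.50 to 9.77 and Elf3, an epithelial transcription factor, from 1.86 to 8.35, both from tumour 1 to tumour 5. Cgn, a tight-junction protein and the member closest to the group mean, ran from 2.49 to 7.88. Msln (mesothelin, a carcinoma antigen) differed from these: only tumour 1 was low (4.18), and the other 6 lay between 8.59 and 9.84. The secreted scavenger gene Dmbt1 had 5.07 in tumour 1 and 10.44 to 14.12 in the others.

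Ductal markers differed in how low they were in tumour 1. Krt8 and Krt18, present in nearly all simple epithelia, averaged 10.25 ± 1.10 and 10.87 ± 1.13, with 7.91 and 8.40 in tumour 1. Sox9, the duct and progenitor factor, had the smallest SD of the list (6.89 ± 0.60). Over the 20 ductal genes the list mean was 4.38 in tumour 1 and 6.94 to 9.35 in the rest. The median r between members was 0.81 and, without tumour 1, 0.46. Immunoglobulin genes (Igkc, Igha, Ighg1, Jchain) fell in the same group as the epithelial genes, being low in tumours 1 and 3 as well.

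Genes at the opposite end from this group included several of mesenchymal cells. Nr2f1, a nuclear receptor, had r of -0.98 with the epithelial group mean and stood at 6.78 in tumour 1, 5.36 in tumour 3 and 0.48 to 2.30 in the other 5. Ddr2, a collagen receptor, stood at 8.39 and 7.66 in those tumours and at most 5.42 in the rest. A group of 14 genes shared this pattern, with a mean of 6.22 in tumour 1, 5.42 in tumour 3, 3.59 in tumour 2 and 1.27 to 1.96 in the others. It held Twist1, a transcription factor of mesenchymal cells (6.68 in tumour 1, 4.89 in tumour 3 and -1.02 in tumour 4), Crabp2, a retinoic acid carrier (7.82 and 7.29 in tumours 1 and 3, at most 3.22 elsewhere), and Igf2bp1, a fetal RNA-binding protein (5.87 and 5.64, at most 2.57 elsewhere). With complete linkage no group of 8 held these genes, so the group itself rests on the linkage.

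Other mesenchymal regulators leaned the same way with smaller spread. In the mesenchymal transition list, 6 of 14 genes were highest in tumour 1, 6 in tumour 3 and 7 lowest in tumour 5, and 1 of 14 reached an SD of 2. Zeb1, a repressor of E-cadherin, ran from 4.49 in tumour 5 to 6.70 in tumour 3, and Snai2 from 0.87 to 4.65 in the same tumours. Vim (vimentin) was lowest in tumour 5 (8.57) and highest in tumour 3 (12.42). Cdh1 and Vim had r of -0.56 (exact permutation p = 0.184, adjusted p = 0.296, n = 7) and rho of -0.82 (exact permutation p = 0.0341, adjusted p = 0.102), which do not pass after adjustment; without tumours 1 and 3 r was -0.87.

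Tumour 5 led a group of 66 genes, Ltf, Pigr and Duox2 among them. Of these, 62 were highest in tumour 5 and 46 lowest in tumour 1, and the group mean was 8.13 in tumour 5, 5.73 in tumour 6, 4.35 in tumour 7, 3.41 to 3.48 in tumours 2 to 4 and 1.60 in tumour 1. Ltf, which encodes the iron-binding lactoferrin of secretions and neutrophil granules (chromosome 9, 111019271 to 111042767, GRCm38), stood at 1.99, 4.30, 2.24, 6.06, 12.51, 9.31 and 6.39 in tumours 1 to 7. Tumour 5 was highest and tumours 1 and 3 lowest. Pigr, the receptor that carries antibodies across epithelium, stood at 11.82 in tumour 5 and at most 7.31 elsewhere. Duox2, an oxidase of mucosal epithelium, and its maturation factor Duoxa2 reached 10.68 and 9.43, against 7.73 and 6.58 in tumour 6. Without tumour 5, 18 of the 66 genes stayed among the 300 clustered and 12 of those in 1 group, and with complete linkage 36.4% stayed together, so the group rests on tumour 5 and on the linkage.

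The group mixed epithelial with myeloid genes. Muc4, a membrane mucin, stood at 9.30 in tumour 5 and at most 5.72 elsewhere, Olfm4, a crypt glycoprotein, at 9.55 and at most 5.25, and Epcam, an epithelial adhesion molecule, at 10.31 and 9.87 in tumours 5 and 6. Cxcl5, a chemokine that attracts neutrophils, stood at 11.37 in tumour 5 and at 2.48 to 7.09 in the others. S100a8 and S100a9, subunits of calprotectin and abundant in neutrophils, stood at 8.45 and 8.83 in tumour 5 and at most 5.09 and 5.82 elsewhere. Of the 16 neutrophil markers measured, 11 were highest in tumour 5, with Csf3r, the receptor for granulocyte colony-stimulating factor, at 7.59 and Cxcr2 at 5.84. Of the rest, 3 were highest in tumour 3, among them Chil3 (10.39), which was lowest in tumour 5 (4.51). The list averaged 6.55 in tumour 5 and 3.57 to 4.67 in the other 6. Ly6g and Camp, also of the neutrophil list, were not analysed here. Ltf and Lcn2 of the list are also made by epithelium, and what share of them came from neutrophils was not tested.

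S100a8 and Cxcl2, a further neutrophil attractant, had r of 0.87 (exact permutation p = 0.0212, adjusted p = 0.0849, n = 7), which did not pass after adjustment. Without tumours 3 and 5 r was -0.03, so the relation rests on those tumours. Genes at the opposite end from the tumour 5 group included Cdkn1c, an inhibitor of cyclin-dependent kinases (r -0.99, from 2.11 in tumour 5 to 5.57 in tumour 1), and Hmga1, a chromatin protein of fetal and cancer cells (from 5.54 to 9.04 in the same tumours). Hmga1b, at 5.59 and 8.96, is a near copy of Hmga1, and their counts may not be independent.

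Genes of gastric-type mucus were low in tumour 1 and highest in tumour 7. KPC carcinoma and its precursors are known to take on a stomach-like programme, with gastrokines, trefoil factors and gel-forming mucins. The group of 12 genes averaged 8.16 in tumour 7, 7.10 in tumour 2, 6.99 in tumour 6, 5.92 in tumour 3, 5.31 in tumour 5, 3.87 in tumour 4 and 1.62 in tumour 1. Tff2, a trefoil of gastric glands, stood at 12.51 in tumour 7, 3.09 in tumour 1 and 5.66 to 9.26 in the other 5. Muc6, the gland mucin, was also highest in tumour 7 (8.90, next 5.52). Gkn1, a gastrokine, reached 9.82 and 9.75 in tumours 7 and 6 and 2.29 in tumour 4.

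Members of this programme did not keep a common order. Muc5ac, the surface mucin, was highest in tumour 2 (6.64) and stood at 2.84 in tumour 7, and Tff1, the surface trefoil, lay between 6.61 and 9.22 in tumours 2 to 7 against 1.91 in tumour 1. Muc5ac and Tff1 had r of 0.78 (exact permutation p = 0.0498, adjusted p = 0.149, n = 7) and, without tumours 1 and 2, 0.13. Ctse (cathepsin E) and Anxa10, both gastric-type genes of early lesions, varied with the epithelial group instead. Over the 14 genes of the list the median r was 0.56 and, without tumour 1, 0.33. Without tumour 1, 12.5% of the gastric group's remaining members stayed in 1 group, so the group rests on tumour 1. The mucosal mast cell protease Mcpt2 was in it, at 8.09 in tumour 7 and 1.47 in tumour 1.

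A group of 15 genes split the tumours otherwise, high in tumours 2, 4, 6 and 7 and low in tumours 1, 3 and 5. Apob, the apolipoprotein of secreted lipoproteins (chromosome 12, 7977648 to 8016835, GRCm38), stood at 10.28, 10.02, 9.97 and 9.04 in the former and at 2.85, 3.26 and 3.18 in the latter. Nothing lay between 3.26 and 9.04, the widest such gap of any protein-coding gene with a mean of at least 2. Acan, the cartilage proteoglycan aggrecan, ran from -1.74 in tumour 5 to 6.83 in tumour 4 with the same 4 tumours on top. Cybrd1, an iron reductase, and Akr1c13, an aldo-keto reductase, followed, from 1.84 to 6.96 and from 2.95 to 7.43. Akr1c12, Akr1c13 and Akr1c19 are close copies. With complete linkage 7 of the 15 genes stayed in 1 group, and without tumour 1 also 7 of 15, so the group rests on the linkage and on tumour 1. Apob is also a gene of the hepatocyte list. The mean of that list was 2.05, 5.15, 1.61 and 3.18 in tumours 2, 4, 6 and 7 and 0.64 to 0.74 in the others. It includes Apob and Serpina3k, both members of this group, so its order is not independent of the group's. Of the 12 hepatocyte genes measured, 8 were highest in tumour 4, while 5 were lowest in tumour 1 and 4 in tumour 6. Alb, which defines that cell, stood at 6.15 in tumour 4 and at -0.52 to 1.97 elsewhere. Serpina3k, a serpin of the liver and another gene of both the list and the group, stood at 5.23, 5.89 and 5.0 in tumours 4, 6 and 7 and at -0.31 to 2.67 in the rest. The part of liver RNA in this pattern was not tested.

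**Figure D4:**
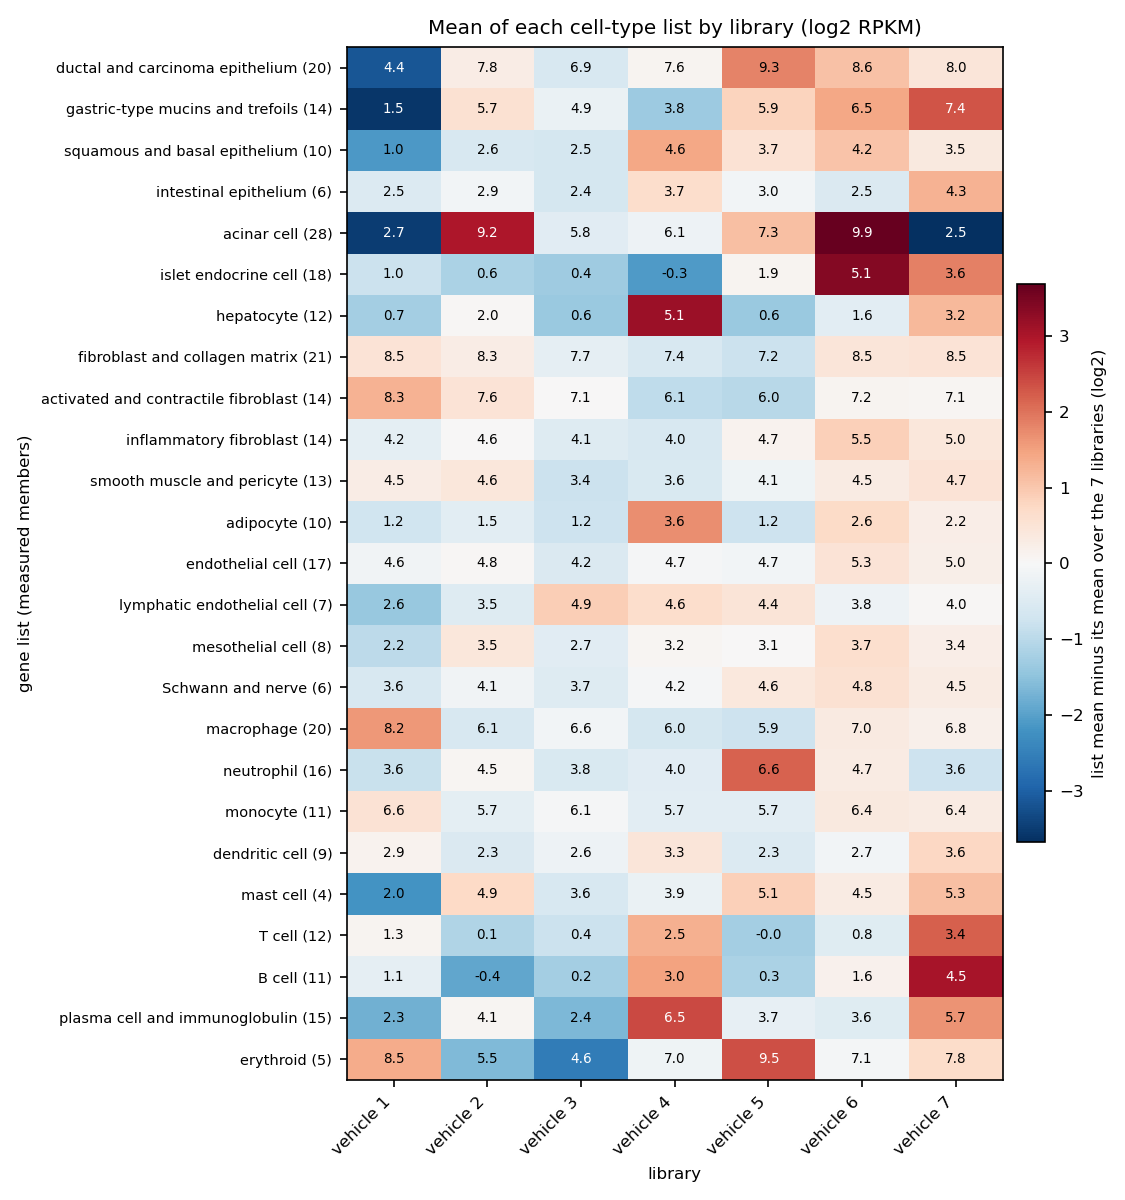
Mean deposited log2 value of the measured members of each cell-type list (rows, number of members in brackets) in each vehicle tumour (columns). Colour is the difference from the row's mean: the acinar row is lowest in tumours 1 and 7, the ductal and gastric rows in tumour 1, and the macrophage row is highest in tumour 1, the neutrophil row in tumour 5 and the B cell row in tumour 7.

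Fibroblast and matrix genes varied less than the ductal list, whose median SD was 1.97. They averaged 7.22 in tumour 5 to 8.53 in tumour 7, with a median SD of 0.96 per gene. Col1a1, a chain of the main fibrillar collagen, stood at 9.39 in tumour 5, a median of 11.10 and 12.15 in tumour 7. Lum, a collagen-binding proteoglycan, had the second largest SD of the list (6.66 ± 1.60), from 4.14 in tumour 1 to 8.47 in tumour 6. Thy1, a surface glycoprotein of fibroblasts and T cells, had the largest (7.10 ± 1.76): it stood at 10.53 in tumour 1 and at 5.10 to 7.64 in the others.

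Markers of activated fibroblasts were led by tumour 1. Of 14 measured, 10 were highest there, and 13 of 14 were lowest in tumour 4 or 5 (6 and 7). Acta2 (smooth muscle actin) ran from 6.28 in tumour 5 to 8.58 in tumour 1, Lrrc15, of myofibroblasts, from 0.58 in tumour 4 to 6.56 in tumour 1, and Col11a1 from 3.06 to 8.49. Acta2 and Col1a1 had r of 0.63 (exact permutation p = 0.132, adjusted p = 0.279, n = 7). Inflammatory fibroblast genes shared no such order: Saa3, an acute-phase protein, was highest in tumour 6 (8.25) and lowest in tumour 3 (3.28), whereas the monocyte attractant Ccl2 was highest in tumour 3 (6.98). The median r within that list was 0.10.

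Endothelial genes had a median SD of 0.44, close to that of all genes, and a shared order. Of 17, 12 were highest in tumour 6 and 10 lowest in tumour 3, and the median r between them was 0.64. Pecam1, the junction protein CD31, ran from 4.89 to 6.12 in those tumours, and Erg, an endothelial transcription factor, had an SD of only 0.14 (3.17 ± 0.14). Sox17, a transcription factor of arterial endothelium, had the largest SD of the list (3.81 ± 1.32) and was highest in tumour 4 (6.09). Among lymphatic markers, Lyve1, which macrophages also make, was highest in tumour 1 (7.49), where Prox1, the lymphatic lineage factor, was lowest (1.43).

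Macrophage genes were higher in tumour 1 than in any other library for 18 of the 20 measured. The list averaged 8.24 there and 5.90 to 6.98 elsewhere. C1qa, a complement subunit made by tissue macrophages, stood at 10.65 in tumour 1 and 7.63 to 8.92 in the others, Csf1r, the growth factor receptor, at 9.60 and 6.69 to 8.25, and Folr2, of resident macrophages, at 7.24 and 3.06 to 4.47. The exceptions were the lectins Cd209f and Cd209g, highest in tumour 6. The median r within the list was 0.83 and, without tumour 1, 0.54. Lyz1, a lysozyme close in sequence to Lyz2, was at 11.71 in tumour 1 and at most 8.77 elsewhere.

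Lymphocyte genes were low in most tumours and highest in tumour 7. Of 12 T cell and 11 B cell genes measured, 11 and 11 were highest in tumour 7, but only 2 and 3 had a mean of at least 2. Cd3e, a chain of the T cell receptor complex, stood at 2.73 in tumour 7, 2.04 in tumour 4 and at most 0.78 elsewhere. Ccr7, the receptor that leads cells into lymphoid tissue, was also highest in tumour 7 (4.25) and next in tumour 4 (3.76).

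Antibody genes were led by tumour 4. Of 15 plasma cell and immunoglobulin genes, 7 were highest in tumour 4 and 6 in tumour 7. Ighg1 stood at 9.40 in tumour 4, 7.84 in tumour 7 and at most 3.84 elsewhere. Ighg2b and Ighg2c reached 8.14 and 7.84 in tumour 4, against 4.06 and 4.05 in tumour 2, and Ighm, the first class made, was highest in tumour 7 (8.11). Constant-region genes are similar to each other, so the split of reads between classes is uncertain. Xbp1 and Sdc1, which plasma cells share with secretory epithelium, did not follow the antibody genes and had means of 8.75 ± 0.73 and 8.93 ± 0.91.

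Among genes of antigen presentation, those of class II were led by tumours 6 and 7. The class I list averaged 6.81 in tumour 7, 6.63 in tumour 1, 6.54 in tumour 6 and 5.10 to 6.11 in the others. Of 10 class I genes, 4 were highest in tumour 1 and 4 in tumour 7, against 24.4% and 6.34% of all genes. H2-Ab1, a class II chain, stood at 10.39 and 10.21 in tumours 7 and 6 and at 6.54 to 8.21 in the other 5, with Ciita, the class II master regulator, at 5.85 and 5.44 against 2.29 to 3.61. Tumour 1, highest in the macrophage list, had 5 of 10 class II genes at their lowest. B2m, the class I light chain, was highest in tumour 1 (10.78) and lowest in tumour 2 (7.53). Of 26 interferon-stimulated genes, 15 were highest in tumour 6 and 11 lowest in tumour 2. Ifit1 ran from 2.09 in tumour 5 to 5.02 in tumour 6.

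Genes known from blood, liver, fat, intestine and muscle differed between tumours. Haemoglobin genes, a measure of blood, differed widely, from 4.83 (Hbb-bs) in tumour 3 to 10.13 in tumour 5 and 10.64 in tumour 1. The 5 measured genes of the erythroid list averaged 4.57 in tumour 3 to 9.49 in tumour 5. That list includes Car2, also a member of the tumour 5 group (9.84 in tumour 5, 2.94 in tumour 1). The other 4 were highest in tumour 1. Liver genes were highest in tumour 4 for 8 of 12 measured, among them Alb, Apoa1 (6.73) and Ttr (6.76), and adipocyte genes in tumour 4 for 7 of 10, among them Adipoq (1.91, others -3.69 to -0.37). Intestinal Alpi (alkaline phosphatase) stood at 7.16 in tumour 7 and at most 3.34 elsewhere. In tumour 3, the giant muscle protein gene Ttn and the integrin Itga7, both known from muscle, stood at 8.69 and 7.89, against at most 4.26 and 4.5 in the others, while the smooth muscle gene Myh11 was at its lowest there (2.14). Of the smooth muscle and pericyte list, 7 of 13 genes were lowest in tumour 3, and 0 of 10 genes of the skeletal muscle list were measured.

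Proliferation genes were lowest in tumour 5 for 27 of 27 measured. The list averaged 3.98 there and 5.38 to 6.09 in the others, with a median r of 0.85 between members. Mki67, the proliferation antigen, stood at 6.42 in tumour 5 and 7.15 to 7.83 elsewhere. Tpx2, of the spindle, stood at 2.70 against 4.91 to 6.0, and Rrm2, of nucleotide supply, ran from 3.65 in tumour 5 to 8.45 in tumour 4. Histone genes were lowest in tumour 5 for 11 of 13. Ribosomal protein genes were lowest there for 16 of 26, and transcripts of the mitochondrial genome highest for 11 of 13, with mt-Atp6 at 11.01 against 7.78 to 9.05. Whether RNA quality or cell composition had a part in these differences was not tested.

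Glycolysis and hypoxia genes had a median SD of 0.54, against 0.42 over all genes. Of 24 measured, 8, 7 and 9 were highest in tumours 1, 4 and 5, against 24.4%, 16.3% and 19.6% of all genes, so 8 in tumour 1 is not far from the share over all genes. Car9, a carbonic anhydrase induced by hypoxia, was the exception with an SD above 1, from 4.02 in tumour 1 to 9.02 in tumour 5. Mki67 and Slc2a1, the glucose transporter of most tissues, had r of -0.65 (exact permutation p = 0.139, adjusted p = 0.279, n = 7) and rho of -0.93 (exact permutation p = 0.00675, adjusted p = 0.0405), so the pair passed for rho and not for r. Without tumours 3 and 5 r was -0.96, and without tumour 5 alone it was -0.97. Leaving out libraries is no separate test of the pair. Genes of the ATF4 amino acid response, which cells raise when amino acids are short, had a median SD of 0.88, and 11 of 16 were highest in tumour 1 and 9 lowest in tumour 5. Phgdh, of serine synthesis, stood at 2.87 in tumour 5 and at 5.12 to 6.68 in the others. Cholesterol synthesis genes were lowest in tumour 1 for 11 of 18.

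Trp53, mutated in the model, averaged 5.65 ± 0.49 and ranged from 5.08 in tumour 6 to 6.44 in tumour 3. Values per allele were not analysed here. Cdkn2a, the tumour suppressor locus often lost in pancreatic cancer, was measured in every library and ranged from 4.91 in tumour 5 to 9.20 in tumour 1. Erbb2 ran from 3.40 in tumour 1 to 6.64 in tumour 6 and Egfr from 5.29 to 7.72, whereas Ereg, a ligand of Egfr, was highest in tumour 1 (6.27) and lowest in tumour 5 (1.93). Dusp6 and Etv4, which are feedback and output genes of MAP kinase signalling, averaged 8.74 ± 0.67 and 5.41 ± 0.67. Myc was highest in tumour 4 (8.64) and lowest in tumour 5 (4.93).

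Myc was not alone in tumour 4. When the 14590 placed genes with a mean of at least 2 were read in chromosome order, 10 neighbours were all highest in tumour 4: Gm5045, Sqle, Washc5, Nsmce2, Trib1, Fam84b, 9930014A18Rik, Myc, Pvt1 and Gm27718 (chr15:59210908-62378096, GRCm38, 3.17 Mb). Their difference from the median of the other 6 tumours was 0.70 to 3.71 with a median of 3.10, an 8.60-fold level, whereas the 3 measured neighbours on each side differed by -0.15 to 0.18. In this run 9930014A18Rik lies within Fam84b and Gm27718 within Pvt1, so the 10 genes are not all separate loci. Sqle, an enzyme of sterol synthesis, stood at 9.97 in tumour 4 and 5.56 to 6.77 in the others. Washc5, of endosome sorting, stood at 9.44 against 6.0 to 7.26. Myc itself, at 8.64 against 4.93 to 7.53, and Pvt1, its noncoding neighbour, at 6.94 against 2.84 to 5.69, stood less far above the next library.

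Tumour 2 had the longest run, of 18 genes from Tenm4 to Acer3 (chr7:96171246-98321208, GRCm38, 2.15 Mb). Their median difference from the other 6 was 1.54, a 2.91-fold level, against 0.02 (-1.10 to 1.34) for the 6 neighbours, and in 1 gene tumour 2 was level with the next library. Rsf1, a chromatin remodelling factor, stood at 7.78 in tumour 2 and 5.80 to 6.16 in the others, Pak1, a kinase that drives cell movement, at 7.58 against 5.0 to 6.31, and Gab2, a signalling adaptor, at 6.79 against 5.04 to 5.33. Beyond the run, Emsy (5.19, others 3.68 to 4.38) and Thap12 (8.70, others 6.16 to 6.73) lie further along the same side and were also highest in tumour 2. Tumour 3 had a run of 10 genes on chromosome 15 (chr15:96287518-97768713, GRCm38) with a median difference of 1.91, but there the neighbours were raised as well (0.41 to 2.04) and tumour 1 was second in 9 of the 10. Amigo2, an adhesion protein, stood at 6.55 in tumour 3 and 5.0 in tumour 1, and the exchange factor Rapgef3 at 7.28 and 6.01.

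**Figure D5:**
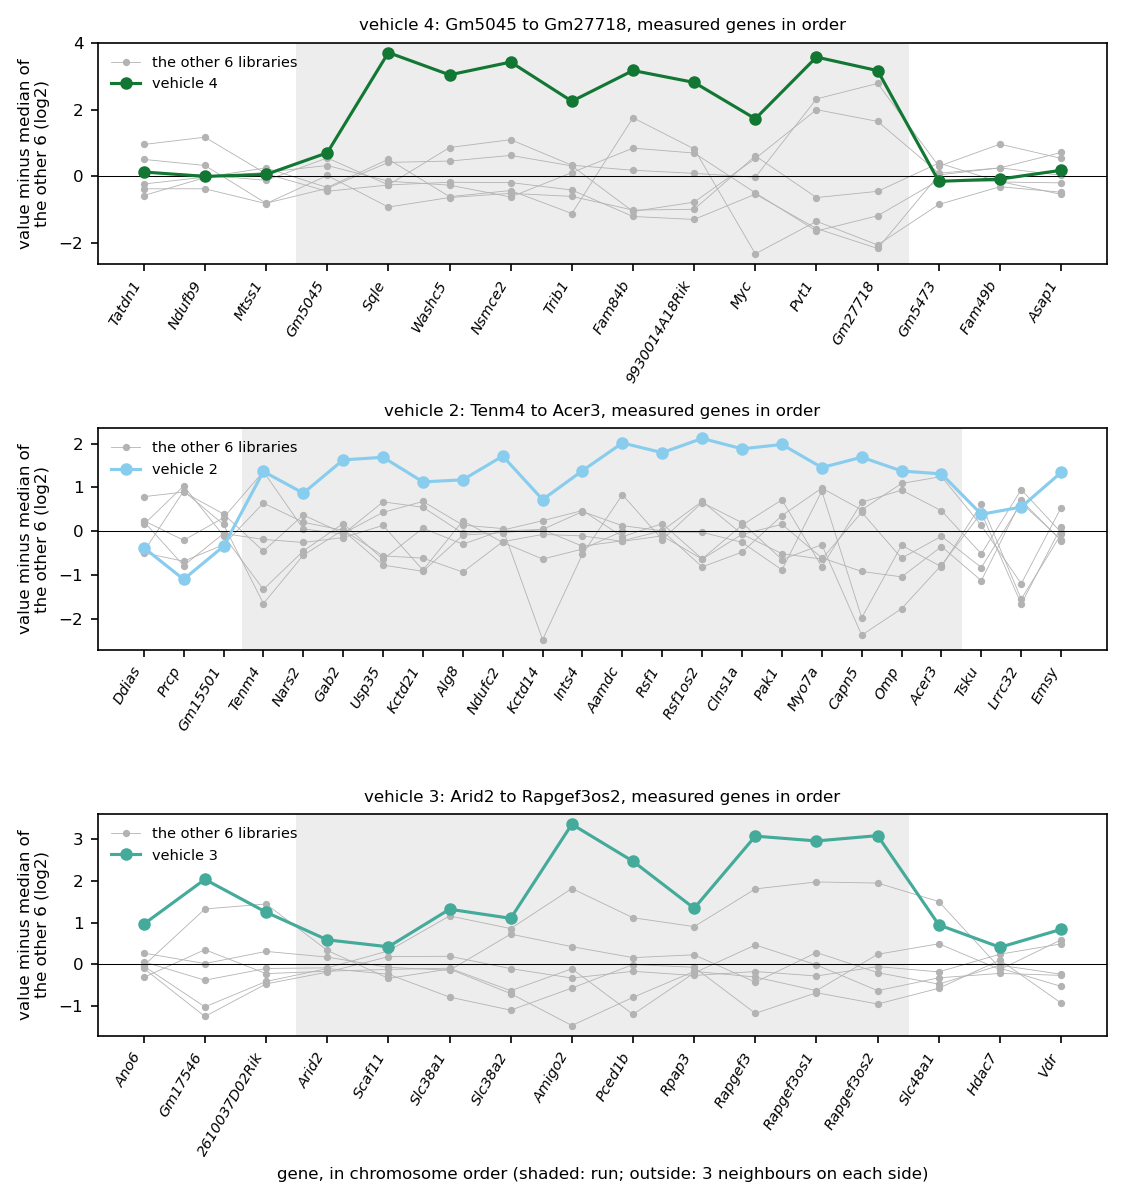
Difference of each library from the median of the other 6 (log2) for the genes of 3 runs and 3 neighbours on each side, in chromosome order. Tumour 4 stands above the rest across 10 genes with both sides near 0, tumour 2 across 18 genes, and tumour 3 across 10 genes whose neighbours are raised too.

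These runs were picked after their values were seen. The other 2 runs hold overlapping genes as well, such as Rsf1os2 with Rsf1, Omp with Capn5, and Rapgef3os1 and Rapgef3os2 with Rapgef3. The number of genes in a run is therefore not a number of independent loci. In all, 100 runs of at least 6 neighbours had their highest (69) or lowest (31) value in 1 library. Of the 69, 16 spanned at least 1 Mb, and 5 of those had a median gap to the next library of at least 0.5. Several narrower runs lay in clusters of related genes, such as trypsinogens, histones and protocadherins. Copy number was not measured here, so gain of DNA and a shared change of expression cannot be told apart.

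Single libraries also stood apart at scattered genes. At least 2 above every other library were 71 genes in tumour 5, 46 in tumour 1, 17 in tumour 3, 16 in tumour 6, 11 in tumour 4, 6 in tumour 2 and 3 in tumour 7. At least 2 below every other were 114 genes in tumour 1, 16 in tumour 5, and 8 or fewer in each of the other 5. In tumour 1 such genes included Plac9a (9.90, others at most 5.86), the Wnt ligand Wnt10a (5.66, others at most 2.76) and the guidance factor Ntn1 (8.92, others at most 6.10). In tumour 5 they included Nlrp10 (8.58, others at most 3.80) and Nos2, the inducible nitric oxide synthase (6.41, others at most 2.84). In tumour 3 they included the imprinted noncoding RNA H19 (10.19, others at most 7.46) and S100a4 (10.15, others at most 7.45). Chil3, a chitinase-like protein also in the neutrophil list, was another (10.39, others at most 7.36). In tumour 2 they included Stc1, a secreted glycoprotein (7.77, others at most 5.66), and Mmp10, a matrix protease (8.09, others at most 5.98).

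Of the 12 gene pairs tested, those not given above had no adjusted p under 0.05. Krt19 had r of 0.51 with Muc5ac (exact permutation, adjusted p = 0.320, n = 7) and -0.11 with Col1a1 (adjusted p = 0.831). Col1a1 had r of 0.56 with Mki67 (exact permutation, adjusted p = 0.296, n = 7), 0.47 with Pecam1 (adjusted p = 0.349) and 0.25 with Adgre1, a macrophage receptor (adjusted p = 0.639). For Cpa1 with Krt19, Col1a1 and Ins1, the libraries fell into 2 clusters (tumours 1 and 7 against the rest in Cpa1), so no r was computed. With 7 libraries, relations of moderate size are not detectable.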

How the data were processed

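Total RNA of whole tumours was depleted of ribosomal RNA and sequenced with a stranded kit as 100 bp paired-end reads, per the labels' protocols. The submitters' processing notes name TopHat2, STAR, limma and mm10, with no order or versions. The deposited values are log2 values, which the authors' column header names log2 RPKM. Counts and depth were not analysed here, so no counting error can be given, and the near-equal distributions of the libraries are described with the results. Of 16322 genes, 16039 were matched to GENCODE M21 for type and position. Sex-chromosome genes were not analysed here.

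Means and SDs were taken over the 7 libraries on the log2 scale, with a minimum mean of 2 for spread. The 300 genes of largest SD were clustered with average linkage on 1 minus Pearson r, at a height of 0.4, keeping groups of at least 8. For 12 pairs of genes, exact two-sided permutation tests over the 7 libraries gave p-values, adjusted by Benjamini-Hochberg. Pairs whose libraries fell into separate clusters were not tested. There is 1 group, so no groups were compared. Python 3.11.15, numpy 2.4.6, scipy 1.17.1, pandas 2.3.3 and matplotlib 3.10.9 were used, and the scripts were tested on simulated data.

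The libraries, gene lists and pairs were chosen with earlier results of these data known. The rule for named genes took the 25 of highest mean, the 30 of largest SD, the 10 of smallest SD, for each list up to 4 members of highest mean and the 2 of largest SD, for each group the 8 closest to its mean, the genes next to the minimum mean and both genes of each pair. Predicted models and small RNA genes were left out of the first 3 sets. Other genes, among them Rprl3, the abundant small RNAs, genes opposite to a group, genes apart in 1 library, further members of the lists and groups, and genes of neighbouring runs, were named after their values were seen. Alternatives tried were other minimum means, a pseudocount of 1, another measure of spread, centring, other linkage, heights and gene numbers, and each library left out in turn. A few genes that this rule or the pairs would name are not reported here.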

Additional observations from a re-analysis of the deposited data

Results flagged for a closer look

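In each result here 1 library lay far from the other 6: its gap to the nearest, divided by the range of all 7, was above Dixon's 95% critical value for 7 values. Chance flags about 1 in 20 such groups. Of 190 genes named in the report 29 met it, of 48 list means 4 and of 7 group means 0 did. Many of the genes were named because a library stood apart, so their number is no evidence of its own.

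Tumour 1 was far below the others in epithelial and gastric-type genes. These were Krt19 (4.90, others 8.61 to 11.30), Krt8 (7.91, others 10.09 to 11.10), Krt18 (8.40, others 10.95 to 11.74), Msln (4.18, others 8.59 to 9.84) and Dmbt1 (5.07, others 10.44 to 14.12). Tumour 1 was also far below in Tff1 (1.91, others 6.61 to 9.22), Clu (7.84, others 11.41 to 13.38) and Sdc1 (7.03, others 8.52 to 9.60). The same held for the mast cell protease Mcpt2 (1.47, others 5.49 to 8.09). Tumour 1 was far above in the macrophage genes C1qa (10.65, others 7.63 to 8.92) and Folr2 (7.24, others 3.06 to 4.47) and in Plac9a (9.90, others 4.67 to 5.86).

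Tumour 5 was far above in the neutrophil list mean (6.55, others 3.57 to 4.67) and in Csf3r (7.59, others 3.04 to 4.81), a neutrophil receptor. It was also above in Nos2 (6.41, others 1.77 to 2.84) and Nlrp10 (8.58, others 1.97 to 3.80). The mean of the mitochondrially encoded list stood at 9.92 (others 8.09 to 8.72), with mt-Co1 (13.29, others 11.41 to 12.11) and mt-Atp6 (11.01, others 7.78 to 9.05). Tumour 5 was far below in the cell cycle list mean (3.98, others 5.38 to 6.09), Tpx2 (2.70, others 4.91 to 6.0) and Phgdh (2.87, others 5.12 to 6.68).

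Tumour 4 was far above in 4 neighbours of Myc: Sqle (9.97, others 5.56 to 6.77), Washc5 (9.44, others 6.0 to 7.26), Trib1 (8.56, others 5.43 to 6.63) and Nsmce2 (7.27, others 3.57 to 4.94). It was also above in Alb (6.15, others -0.52 to 1.97), the liver's main secreted protein. Tumour 2 was far above in Rsf1 (7.78, others 5.80 to 6.16), Gab2 (6.79, others 5.04 to 5.33) and Thap12 (8.70, others 6.16 to 6.73), which lie near each other on chromosome 7. Tumour 3 was far above in the muscle genes Ttn (8.69, others 3.14 to 4.26) and Itga7 (7.89, others 2.79 to 4.5) and below in the fatty acid oxidation list mean (4.52, others 4.90 to 5.11). No label sets any of these libraries apart.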

How the results depend on the processing

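No paired analysis was possible because all 7 libraries belong to 1 group. The count of genes with an SD of at least 2 was 249 and became 378 with no minimum mean and 148 with a minimum mean of 4. Leaving out each library gave 185 (without tumour 1) to 307 (without tumour 2). The number of groups was 7 and became 11 with complete linkage, and 5 to 9 with a library left out. The share of a group's members that stayed in 1 group fell lowest to 69.0% for the exocrine group, 12.5% for the gastric group without tumour 1 and 0 for the 14-gene group with complete linkage. The number of pairs past the threshold for r was 1. It was 2 after adding 1 before the logarithm, and 1 to 2 with a library left out. Without tumour 2, S100a8 and Cxcl2 reached r of 0.92 (exact permutation, adjusted p = 0.05), and without tumour 5, Mki67 and Slc2a1 passed (r -0.97, exact permutation, adjusted p = 0.0167). Both values came from runs that left out each library in turn, so neither is a separate test of its pair. Pairs with an r far from passing changed sign: Krt19 and Muc5ac ranged from -0.55 (without tumour 1) to 0.73, Krt19 and Col1a1 from -0.22 to 0.25 (without tumour 5), and Mki67 and Col1a1 from -0.32 (without tumour 5) to 0.85. The cause of these changes was not tested. Of the 25 most abundant genes, 20 were shared with a ranking on the linear scale and 22 to 24 with a library left out. The median r between libraries stayed between 0.85 and 0.87. For the neighbouring runs, alternatives chosen after seeing the data kept 10 of 10 genes highest in tumour 4, and 17 of 18 in tumour 2 after centring. Depth is unknown, so it cannot be said how much of the spread of low genes is counting noise.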

Other observations

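Genes opposite to a group give a further view of what the tumours low in that group held. Grem1, a secreted BMP antagonist, had r of -0.84 with the exocrine group mean, and Mttp, of lipoprotein assembly, -0.89: Mttp stood at 4.81 in tumour 1, 3.99 in tumour 7 and 1.46 in tumour 6. Opposite to the gastric group stood the metallothioneins Mt1 (r -0.82) and Mt2 (r -0.85), which bind zinc and copper. Mt2 stood at 8.06 in tumour 1 and 4.03 in tumour 7. Opposite to the group of islet and goblet genes stood Fkbp5, a glucocorticoid-responsive chaperone (r -0.96), from 5.05 to 7.46. These genes were picked for their r, so their r is a description.

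The squamous list had 8 of 10 measured genes lowest in tumour 1, and its mean was highest in tumour 4 (4.56). Circadian clock genes had their lowest list means in tumours 6 (3.90) and 7 (3.94), against 4.37 to 4.67 in the others. Complement genes were lowest in tumour 3 for 6 of 12, with a list mean of 5.70 there and 8.16 in tumour 6.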
